A study of Mus musculus with 12 samples.

Results

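The cardiac potassium channel genes described here were Kcnd2, Kcnd3, Kcnip2, Kcna5, Kcnv2, Kcnq1, Kcnh2, Kcnj2, Kcnj3 and Kcnj5, which are 10 of the 19938 mouse genes measured. They were chosen by name, and each was read from the probe set annotated to that gene alone, of which each of the 10 had a single one. The tissue was ventricle of male C57BL/6 mice without a transgene named in the labels, hybridised to 12 Affymetrix whole-transcript arrays. A clip on the pulmonary artery (PAC) narrowed the outflow of the right ventricle (RV), and a clip on the aorta (TAC) that of the left ventricle (LV). The 6 groups, of 2 arrays each, were RV of sham mice at 3 weeks (age 15 weeks), RV at 1 week (13 weeks of age), 3 weeks (15 weeks) and 6 weeks (18 weeks) after PAC, LV of sham mice at 3 weeks (15 weeks), and LV at 3 weeks after TAC (15 weeks). Sham hearts were sampled at 3 weeks only. At 1 and 6 weeks, therefore, the clip itself, the time since surgery and the age of the mice cannot be told apart. The labels name no separate animals, nor do they say whether sham RV and sham LV came from the same hearts, so the p-values measure only the spread between these arrays, which may be technical. Hearts had been perfused and cut into LV, septum and RV, and the pieces hold every cell type of the wall.

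Potassium channels end each action potential of a heart muscle cell and hold its resting voltage. In the mouse ventricle the fast transient outward current, carried by Kv4 pore subunits with the accessory protein KChIP2, dominates early repolarisation, delayed rectifiers follow, and the inward rectifier Kir2.1 sets the resting voltage. Kir3.1 and Kir3.4 form the channel that acetylcholine opens through G proteins, best known from atrium and conduction tissue, and lower potassium channel expression is a familiar feature of the enlarged or failing heart.

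Among the 10 genes, the Kir3 pair fell in the clipped right ventricle. Kcnj5 was 1.38-fold lower than in sham RV at 3 weeks and 1.46-fold lower at 6 weeks, and Kcnj3 was 1.54-fold lower at 6 weeks. Each of these calls was lost without either sham RV array, and the 3-week call was narrow (limma adjusted p = 0.0467). Kcnv2, a silent Kv subunit, was 2.11-fold lower at 1 week, a call that was lost without either sham RV array or without array 2 of that PAC group. At 1, 3 and 6 weeks 1, 1 and 2 of the 10 members passed, against 18.4%, 5.76% and 9.25% of all genes. No member rose in any comparison, and none passed in the left ventricle after TAC, where 0 of all 19938 genes did and 9 of the 10 changes were also below zero. Throughout, levels are log2 expression values, changes are differences of log2 group means ± the standard error of the limma model, and a gene passed at a Benjamini-Hochberg adjusted limma p under 0.05 over all 19938 genes. A level compares arrays for 1 gene and not genes with each other. With 2 arrays on each side, the smallest p that an exact permutation test can reach is 0.33, and every p given here rests instead on the spread that limma shares across groups and genes.

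The pieces carried the markers of ventricular muscle, and other cell types differed between the arrays. The mean of 11 ventricular cardiomyocyte markers lay between 13.42 and 13.56 on all 12 arrays, and none of the 11 passed in any of the 8 comparisons. This mean was nevertheless higher on both sham RV arrays, at 13.56 each, than on all 6 PAC arrays, at 13.42 to 13.51. It was also higher on both sham LV arrays than on both TAC arrays. The median change of the 11 was -0.07, -0.06 and -0.07 at 1, 3 and 6 weeks after PAC. The mean of 7 atrial muscle markers was 6.94 and 6.41 in sham RV, 8.55 and 9.82 at 1 week, 7.79 and 9.0 at 3 weeks, 7.63 and 8.03 at 6 weeks, 7.30 and 8.52 in sham LV, and 7.58 and 7.43 after TAC. Of these 7 genes 6 rose at 1 week, 2 at 3 weeks and 1 at 6 weeks after PAC. The mean of 7 fibroblast markers was 9.30 and 9.34 in sham RV and between 10.12 and 11.10 after PAC, with 5, 4 and 2 markers passing at 1, 3 and 6 weeks, and 9.88 and 9.42 in sham LV. Of 7 macrophage markers 6 rose at 1 week, where array 2 had the highest mean of all, 9.08. Array 2 of PAC at 1 week also had the highest atrial and fibroblast means, and its correlation with array 1 over all genes, 0.992, was the lowest between the arrays of a group. In such bulk tissue fewer cells of a type and less RNA per cell cannot be told apart, and the part these shifts had in the changes below was not tested.

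**Figure D1:**
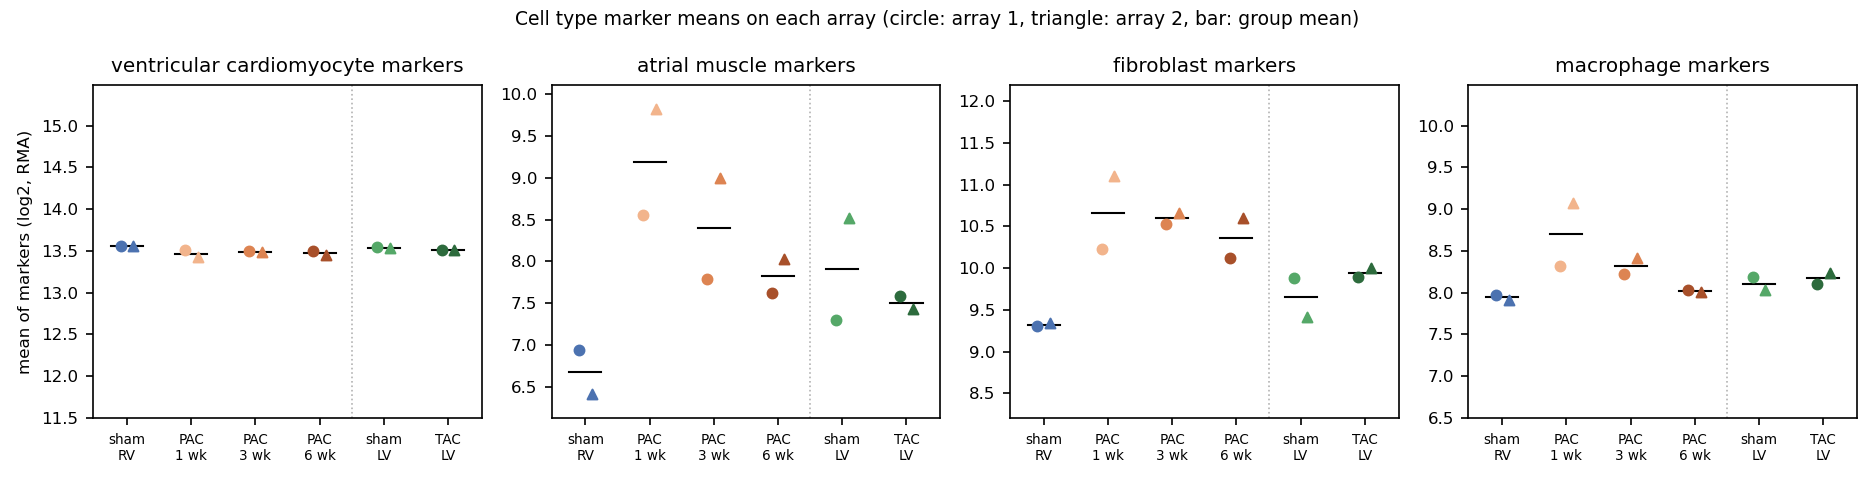
Mean log2 level of the marker genes of ventricular cardiomyocytes, atrial muscle, fibroblasts and macrophages on each of the 12 arrays, by group, with the axis spanning the same length in each panel; the bar is the mean of the 2 arrays. The ventricular markers lie between 13.42 and 13.56 everywhere, while the atrial mean runs from 6.41 to 9.82 and is highest in array 2 of PAC at 1 week.

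The acetylcholine-gated inward rectifier is built from the products of Kcnj3 (Kir3.1) and Kcnj5 (Kir3.4). Their RefSeq promoters on GRCm38.p6 are shown because these were the members that fell together. Each line gives 200 bases 5′ to 3′ on the gene's strand, from 250 to 51 bases before the annotated start, at chr2:55435720-55435919 on the plus strand for Kcnj3 and at chr9:32344395-32344594 on the minus strand for Kcnj5. Capitals mark a match to one of the 4 motifs searched.

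Kcnj3: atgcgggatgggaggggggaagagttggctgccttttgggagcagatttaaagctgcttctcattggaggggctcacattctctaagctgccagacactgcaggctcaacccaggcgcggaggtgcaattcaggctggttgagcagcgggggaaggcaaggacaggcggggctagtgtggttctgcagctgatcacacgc
Kcnj5: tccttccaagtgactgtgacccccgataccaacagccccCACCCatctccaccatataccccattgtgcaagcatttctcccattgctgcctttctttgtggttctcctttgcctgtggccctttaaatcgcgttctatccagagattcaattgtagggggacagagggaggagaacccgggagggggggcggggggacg

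Of the 10 members 8 had an entry in the promoter table, all but Kcnq1 and Kcnv2. The motifs were searched on both strands over the 250 bases before the start, with overlaps allowed, and a match is a match of letters and not a binding site. They were ACANNTGT, named for Iroquois factors and present in 6.3% of all 32851 promoters of the table, GGAAA (NFAT, 55.6%), CACCC (Kruppel-like factors, 52.0%) and TATAAA (the TATA box, 12.4%). The Kcnj3 promoter held none of the 4, and the Kcnj5 promoter held 1 CACCC. Both were near each other in base composition, at 58.4% and 58.0% G or C with 7 CpG dinucleotides each, against medians of 52.4% and 6 over all promoters. Among the other 6 matched members, CACCC occurred in all 6, with 4 matches in Kcnip2, 3 in Kcnh2 and 1 or 2 in the rest. GGAAA occurred in Kcnd3, Kcnip2 and Kcna5, and neither ACANNTGT nor TATAAA was found in any of the 8.

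Kcnj3 read 9.06 and 8.84 in sham RV, 8.81 and 8.75 at 1 week after PAC, 8.56 and 8.51 at 3 weeks, and 8.38 and 8.27 at 6 weeks. In the left ventricle it read 8.85 and 9.05 in sham and 8.75 and 8.46 after TAC. Sham RV lay above PAC at 1 week, which lay above 3 weeks, which lay above 6 weeks, without overlap, and the TAC arrays lay below the sham LV arrays. The change from sham RV was -0.17 ± 0.12 at 1 week (limma adjusted p = 0.32), -0.42 ± 0.12 at 3 weeks (adjusted p = 0.0632) and -0.63 ± 0.12 at 6 weeks (adjusted p = 0.0173), so only the last passed. After TAC the change was -0.34 ± 0.12, with an unadjusted limma p of 0.0158 and an adjusted p of 0.985. Leaving out 1 array at a time, the 6-week change ran from -0.73 to -0.52. The call was lost without either sham RV array or without array 2 of PAC at 6 weeks, with an adjusted p of up to 0.158, and was kept in the 9 other such fits.

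Kcnj5 read 8.89 and 8.71 in sham RV, 8.71 and 8.54 at 1 week, 8.39 and 8.29 at 3 weeks, and 8.23 and 8.29 at 6 weeks after PAC. Its sham LV levels were 8.80 and 9.02, and its TAC levels 8.66 and 8.42. Every PAC array at 3 and 6 weeks lay below every array of the other 4 groups. The change was -0.46 ± 0.12 at 3 weeks (limma adjusted p = 0.0467) and -0.54 ± 0.12 at 6 weeks (limma adjusted p = 0.0245), against -0.18 ± 0.12 at 1 week (adjusted p = 0.281). TAC gave -0.37 ± 0.12, with an unadjusted limma p of 0.0097 and an adjusted p of 0.985. The 3-week call was narrow. An alternative fit left out 3 arrays of high atrial markers (array 2 of PAC at 1 week, of PAC at 3 weeks and of sham LV). That fit kept array 1 of PAC at 1 week, whose atrial mean of 8.55 was above the 8.52 of array 2 of sham LV. The 3-week call was lost in that fit and in the fit to only the arrays compared. It held in 2 of the 12 fits that each left out 1 array, those without either PAC 1 week array, and the other 10 gave adjusted p-values of up to 0.258 with changes between -0.55 and -0.37. The 6-week call held in 8 of 12 and was lost without either sham RV array or either PAC 6 weeks array, with an adjusted p of up to 0.157.

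The Kir3 genes had the most similar profiles of any 2 members. Over the 6 group means, each profile centred on its own mean, the root mean square difference between Kcnj3 and Kcnj5 was 0.06, and the next closest members, Kcnq1 and Kcnh2, differed by 0.09. Among all 19938 genes, the closest to Kcnj3 were Aldh1l2, Fgf16 and Fgf14, at 0.04 to 0.06. For Kcnj5 they were Crhr2, H2-Aa and Kcnj3, at 0.05 to 0.06. These are descriptions over 6 means that all genes share, not tests.

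**Figure D2:**
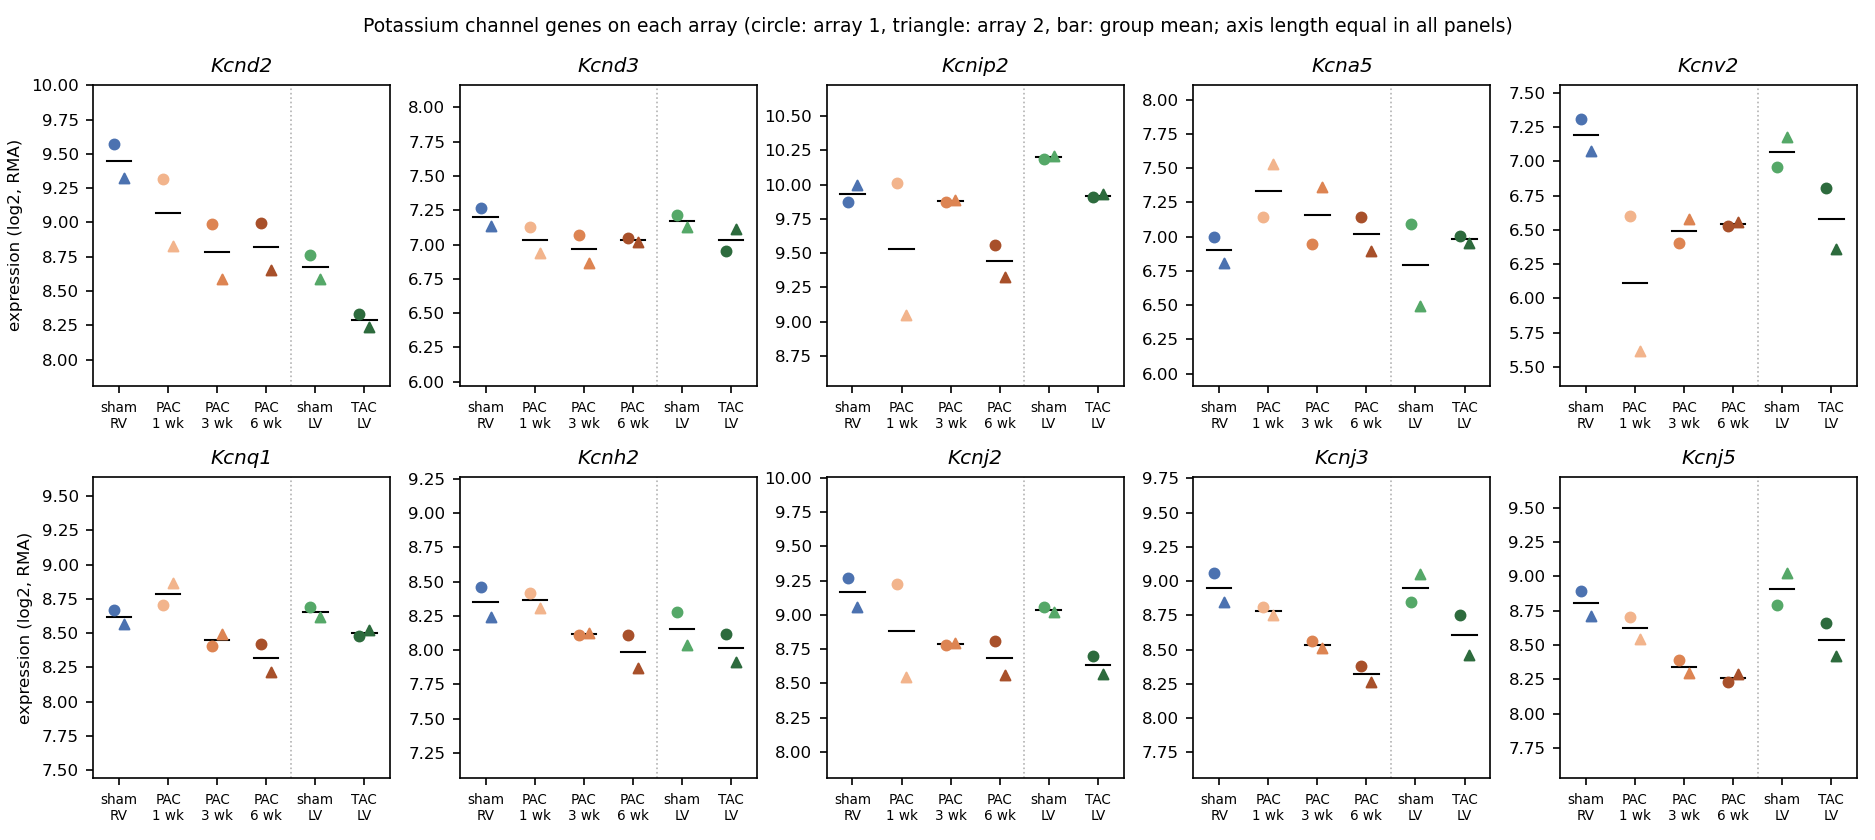
Log2 expression of the 10 potassium channel genes on each array, by group, with arrays 1 and 2 as a circle and a triangle and the group mean as a bar; the axes of all panels span the same length, and the dotted line separates right from left ventricle. Kcnj3 and Kcnj5 step down from sham RV to PAC at 6 weeks, Kcnd2 is highest in sham RV and lowest after TAC, and the 2 arrays of PAC at 1 week lie far apart for Kcnip2, Kcnj2 and Kcnv2.

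Kcnj2 encodes Kir2.1, the main pore subunit of the resting inward rectifier current. It read 9.27 and 9.06 in sham RV, 9.23 and 8.54 at 1 week, 8.78 and 8.79 at 3 weeks, and 8.81 and 8.56 at 6 weeks after PAC, with 9.05 and 9.02 in sham LV and 8.70 and 8.57 after TAC. The PAC arrays at 3 and 6 weeks lay below sham RV, and those at 1 week did not separate from it. The changes were -0.28 ± 0.18, -0.38 ± 0.18 and -0.48 ± 0.18 at 1, 3 and 6 weeks (limma adjusted p between 0.111 and 0.283). After TAC Kcnj2 stood at -0.40 ± 0.18, with an unadjusted limma p of 0.0495 and an adjusted p of 0.985. None passed. Without array 2 of PAC at 1 week, the 1-week difference was 0.06.

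The fast transient outward current takes its pore from Kcnd2 (Kv4.2) and Kcnd3 (Kv4.3) and its accessory subunit KChIP2 from Kcnip2. Kcnd2 read 9.57 and 9.33 in sham RV, 9.32 and 8.83 at 1 week, 8.99 and 8.58 at 3 weeks, and 8.99 and 8.65 at 6 weeks after PAC. In the left ventricle it read 8.76 and 8.59 in sham and 8.34 and 8.24 after TAC. Sham RV lay above every other array, if barely above array 1 of PAC at 1 week, and TAC lay below every other array. The changes from sham RV were -0.38 ± 0.19 at 1 week (limma adjusted p = 0.161), -0.66 ± 0.19 at 3 weeks (adjusted p = 0.0597) and -0.63 ± 0.19 at 6 weeks (adjusted p = 0.0595), and the change after TAC was -0.39 ± 0.19 (adjusted p = 0.985). None passed, though the 3-week and 6-week differences stood near the threshold and did pass in 5 and 6 of the 19 alternative fits. One of these had a block for replicate number, under which Kcnd2 also passed at 1 week and between the sham chambers, and array 1 read above array 2 in all 6 groups. The spread of Kcnd2 within groups, 0.23 as a pooled SD, was wide beside the median of 0.11 over all genes.

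Of the members, Kcnd2 also showed the widest gap between the unobstructed chambers. Sham RV exceeded sham LV by 0.77 ± 0.19 (95% interval 0.36 to 1.18), or 1.71-fold, with no overlap of the arrays and an adjusted limma p of 0.0738. At 3 weeks the clipped RV exceeded the constricted LV by 0.50 ± 0.19 (adjusted p = 0.616), again without overlap. Irx5, an Iroquois repressor known for shaping the Kcnd2 gradient across the ventricular wall, ran the other way; it was singled out after its values were seen. It read between 6.60 and 6.98 on the 8 RV arrays and between 7.24 and 7.67 on the 4 LV arrays. The difference of sham RV from sham LV in Irx5, -0.58 ± 0.17, did not pass either (limma adjusted p = 0.105). Of 16 listed regulators of these channel genes, Irx5 among them, 8 had a lower mean in sham RV than in sham LV and 8 a higher one. None of the 16 passed in that comparison. Within the right ventricle Irx5 differed from sham by -0.06, 0.00 and 0.02 at 1, 3 and 6 weeks.

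Kcnd3 varied little. Its group means lay between 6.97 and 7.20, highest in sham RV and lowest at 3 weeks after PAC, and its changes were -0.17, -0.23 and -0.17 after PAC and -0.14 after TAC, each ± 0.11. Kcnip2 was uneven between arrays. Its mean was 9.93 ± 0.09 (SD, 2 arrays) in sham RV, and it read 10.01 and 9.05 at 1 week, 9.87 and 9.89 at 3 weeks, and 9.56 and 9.32 at 6 weeks, with 10.19 and 10.21 in sham LV and 9.91 and 9.93 after TAC. Both arrays at 6 weeks lay below sham RV, and both TAC arrays below sham LV. The changes were -0.40 ± 0.23 at 1 week, -0.06 ± 0.23 at 3 weeks, -0.49 ± 0.23 at 6 weeks (limma adjusted p between 0.174 and 0.886) and -0.28 ± 0.23 after TAC (adjusted p = 0.985). Without array 2 of PAC at 1 week, the 1-week difference was 0.08.

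Among the delayed rectifiers and their modifiers, Kcnv2 encodes Kv8.2, a subunit that forms no channel alone and joins Kv2 pores. It read 7.31 and 7.07 in sham RV, 6.60 and 5.62 at 1 week, 6.40 and 6.58 at 3 weeks, and 6.53 and 6.56 at 6 weeks after PAC. Sham LV read 6.96 and 7.18, and TAC 6.81 and 6.36. All 6 PAC arrays lay below sham RV and both TAC arrays below sham LV. The change was -1.08 ± 0.26 at 1 week, which passed (limma adjusted p = 0.0231), then -0.70 ± 0.26 (adjusted p = 0.109) and -0.65 ± 0.26 (adjusted p = 0.125), and -0.49 ± 0.26 after TAC (adjusted p = 0.985), which did not. Without array 2 of PAC at 1 week, the array with the highest atrial, fibroblast and macrophage marker means, the 1-week change was -0.59 and its adjusted p 0.116. The call was also lost without either sham RV array. On array 2 of PAC at 1 week Kcnv2 fell under the median of the probe sets that carry no listed gene. The genes nearest to its profile were Cxcl14, Alkal2 and Gbp4, at root mean square differences of 0.10 to 0.12.

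Kcnq1 and Kcnh2 encode the pores of the slow and the rapid delayed rectifier, currents that are large in human ventricle and small in that of the adult mouse. Kcnq1 read 8.67 and 8.57 in sham RV, 8.71 and 8.86 at 1 week, 8.41 and 8.50 at 3 weeks, and 8.42 and 8.22 at 6 weeks after PAC. The 1-week arrays lay above sham RV and those at 3 and 6 weeks below it. The changes were 0.17 ± 0.10, -0.17 ± 0.10 and -0.30 ± 0.10 (limma adjusted p between 0.076 and 0.269). From 1 to 6 weeks Kcnq1 differed by -0.47 ± 0.10, the lowest unadjusted limma p of any member in that comparison, 0.000617, with an adjusted p of 0.107. In the left ventricle it read 8.69 and 8.62 in sham and 8.48 and 8.53 after TAC, a difference of -0.15 ± 0.10.

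Kcnh2 read between 8.24 and 8.46 in sham RV and at 1 week after PAC, 8.11 and 8.12 at 3 weeks, and 8.11 and 7.87 at 6 weeks. Its changes were 0.01, -0.23 and -0.36, each ± 0.12 (limma adjusted p between 0.087 and 0.952), and after TAC -0.14 ± 0.12. Kcna5, the Kv1.5 pore of the ultrarapid current, was the 1 member whose change was above zero at all 3 times and after TAC. Its group means ran from 6.79 in sham LV to 7.34 at 1 week after PAC, and the sham LV arrays alone spanned 6.49 to 7.09. The differences were 0.43, 0.25, 0.11 and 0.19, each ± 0.20, and none passed (adjusted limma p of 0.148 or more).

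**Figure D3:**
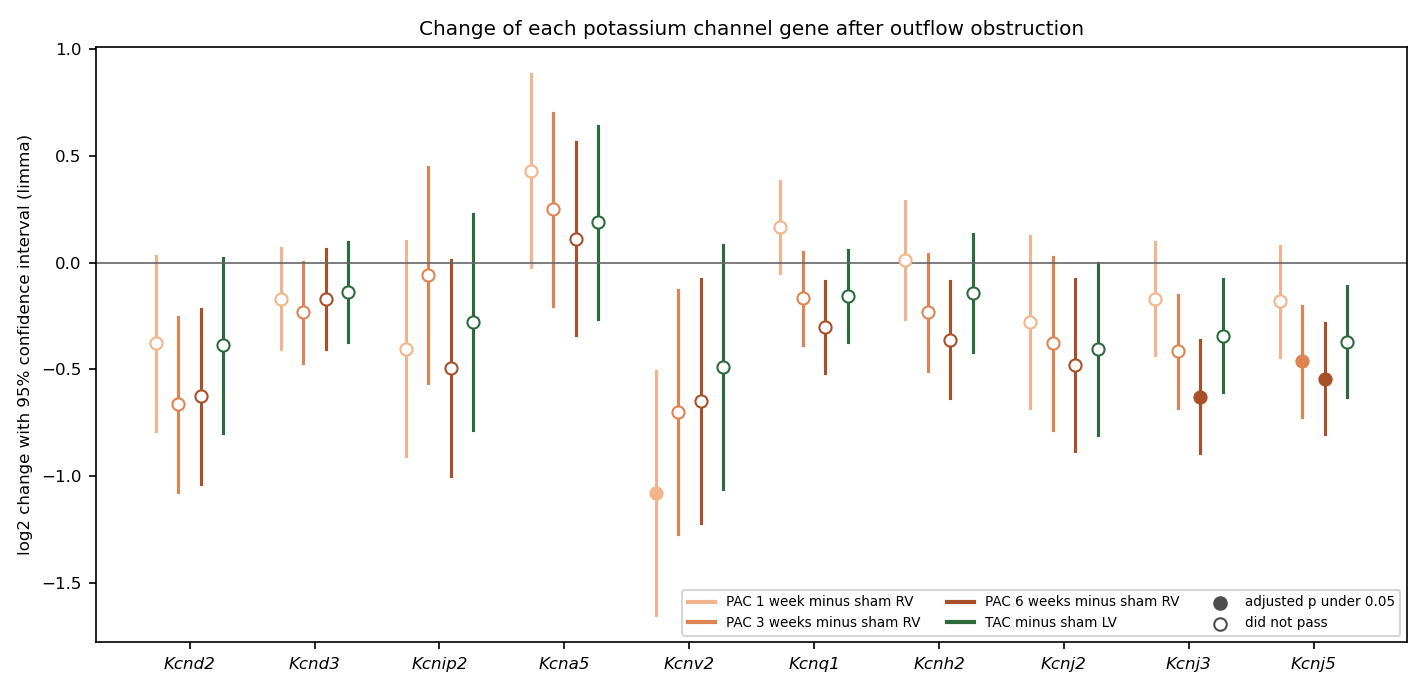
Log2 change of each potassium channel gene after PAC at 1, 3 and 6 weeks against sham RV and after TAC against sham LV, with 95% confidence intervals from limma; filled points passed at an adjusted p under 0.05. The filled points are Kcnv2 at 1 week, Kcnj5 at 3 weeks, and Kcnj3 and Kcnj5 at 6 weeks, and Kcna5 alone has all 4 points above zero.

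Counted together, 1 of the 10 members passed at 1 week after PAC, where 18.4% of all genes did (9.57% higher, 8.86% lower). At 3 weeks 1 of 10 passed, against 5.76% of all genes (3.22% higher, 2.54% lower). At 6 weeks 2 of 10 passed, against 9.25% (5.52% higher, 3.73% lower). All 4 of these calls were lower. Members with a change below zero numbered 7, 9 and 9 of 10. The median change of the 10 was -0.17, -0.31 and -0.49 at 1, 3 and 6 weeks, and that of all genes -0.05 at each time. Genes above the median level, as 9 of the members were, had median changes of 0.08, 0.07 and 0.07. These 3 comparisons share the 2 sham RV arrays, so they are not independent of each other. Both arrays lay below both sham arrays in 5, 8 and 9 members, against 36.7%, 35.7% and 35.8% of all genes.

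Between 6 weeks and 1 week after PAC, limma passed none of the 10 members and 0.0953% of all genes. Of the members 9 were lower at 6 weeks, and 4 had an unadjusted limma p under 0.05, namely Kcnq1, Kcnj3, Kcnj5 and Kcnh2, against 9.75% of all genes. For Kcnj3 that difference was -0.46 ± 0.12 (adjusted p = 0.202) and for Kcnj5 -0.36 ± 0.12 (adjusted p = 0.319). Kcnv2 was the exception, higher at 6 weeks by 0.43 ± 0.26.

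In the left ventricle limma passed 0 of the 19938 genes after TAC (0%), and so none of the 10 members. At an unadjusted p under 0.05 stood 963 genes, or 4.83%, and 3 of the 10 members, Kcnj2, Kcnj3 and Kcnj5. The median change of the members was -0.31, against -0.02 for all genes, and in 8 of 10 both TAC arrays lay below both sham LV arrays, against 23.1% of all genes. The change after PAC at 3 weeks less the change after TAC was tested directly, and no member and no gene (0%) passed by limma. None of the members had an unadjusted p under 0.05 in that test, where 11.9% of all genes did. The differences ran from -0.28 ± 0.26 in Kcnd2 to 0.22 ± 0.32 in Kcnip2, with adjusted p-values of 0.67 or more. For Kcnj3 the 95% interval was -0.45 to 0.30 and for Kcnj5 -0.46 to 0.27, wide enough to hold differences as large as the PAC changes of either at 3 weeks, or nearly so.

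Between the chambers the largest difference of any member was that of Kcnd2. Sham RV against sham LV passed none of the 10 by limma, where 0.411% of all genes passed, and 1 member, Kcnd2, had an unadjusted p under 0.05, against 20.7% of all genes. The other 9 differences ran from -0.26 ± 0.23 in Kcnip2 to 0.19 ± 0.12 in Kcnh2, and Kcnj3 stood at 0.00 ± 0.12. PAC against TAC at 3 weeks also passed none, against 0.0201% of all genes, with 1 unadjusted p under 0.05, again Kcnd2, against 7.37% of all genes. The lowest mean was PAC at 6 weeks in Kcnip2, Kcnq1, Kcnh2, Kcnj3 and Kcnj5, TAC in Kcnd2 and Kcnj2, PAC at 3 weeks in Kcnd3, PAC at 1 week in Kcnv2 and sham LV in Kcna5. With the groups of each member in order of their means, 33 of the 50 neighbouring pairs differed by less than 1 standard error of a difference, as PAC at 3 and 6 weeks did in Kcnd2 (8.79 and 8.82) and in Kcnj5 (8.34 and 8.26).

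Beyond the 10 members, 52 other potassium channel genes were listed, and 49 of them were measured. At 1 week 1 rose and 5 fell, at 3 weeks 1 fell, and at 6 weeks 1 rose and 4 fell, while none passed in the other 5 comparisons by limma. These counts stood beside 18.4%, 5.76% and 9.25% of all genes at 1, 3 and 6 weeks, and so are no result about potassium channel genes. Changes below zero numbered 39, 40 and 41 of 49 at the 3 times, with medians of -0.16, -0.18 and -0.20. Of the 49 genes 36 lay below the median level of all genes, and all genes below that level had medians of -0.17, -0.15 and -0.14. The other 13 of the 49 had medians of -0.14, -0.16 and -0.21. All genes above the median level had medians of 0.08, 0.07 and 0.07. After cyclic loess scaling, 28, 35 and 33 of the 49 were below zero, with medians of -0.11, -0.10 and -0.11.

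Kcna4, the Kv1.4 pore of the slow transient outward current, was the gene of this list that rose at 1 week. It read 5.84 and 5.39 in sham RV, 6.58 and 6.31 at 1 week, 5.88 and 6.05 at 3 weeks, 5.97 and 6.14 at 6 weeks, and between 6.00 and 6.35 in the left ventricle. The 1-week arrays lay above all other RV arrays, by 0.83 ± 0.16 over sham (limma adjusted p = 0.014). This call was lost without array 2 of sham RV and in the fit to only the arrays compared, and it held without array 2 of PAC at 1 week. Kcnk1, a background channel of the tandem-pore family, read 6.34 and 6.64 in sham RV, 5.84 and 5.68 at 1 week, 6.23 and 5.85 at 3 weeks, and 5.78 and 5.83 at 6 weeks. It fell at 1 week, with a change of -0.73 ± 0.14 (limma adjusted p = 0.0123), and at 6 weeks, with -0.68 ± 0.14 (adjusted p = 0.0204). The first of these was lost without array 2 of PAC at 1 week or of sham RV, and the second without array 2 of sham RV or of PAC at 6 weeks.

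Kcna1 (Kv1.1) fell at 1 week and at 6 weeks, with changes of -0.46 ± 0.13 and -0.55 ± 0.13 (limma adjusted p = 0.0369 and 0.0291). It read 6.93 and 6.58 in sham RV, 6.33 and 6.27 at 1 week, 6.27 and 6.14 at 6 weeks, and 6.44 and 6.34 in sham LV. Kcnn1, a calcium-activated channel, and Kcnc4 (Kv3.4) fell at 1 week, with changes of -0.42 ± 0.10 and -0.47 ± 0.13. Kcnc4 read 6.81 and 6.74 in sham RV, 6.27 and 6.34 at 1 week, and 6.27 and 6.31 in sham LV. The accessory subunit gene Kcne2 fell at the same time, with a change of -0.33 ± 0.10 (limma adjusted p = 0.0415). Kcnt2, a sodium-activated channel, rose at 6 weeks, by 0.82 ± 0.21 (limma adjusted p = 0.0391), and read 7.42 and 6.93 in sham RV against 7.68 and 8.30 at 6 weeks. Kcnmb4, an accessory subunit of the large calcium-activated channel, fell at 6 weeks, with a change of -0.42 ± 0.11. Dpp10, an accessory protein of Kv4 channels, fell at 3 and 6 weeks, with changes of -0.53 ± 0.11 and -0.40 ± 0.11, at levels of 3.37 to 3.99. Sham LV also lay below sham RV, without overlap, in Kcna1, Kcnn1, Kcnc4, Kcne2 and Dpp10, and overlapped it in Kcnt2 and Kcnmb4. The median difference of sham RV from sham LV was 0.10 over all genes below the median level. Dpp10 and Kcne2, the latter at 4.96 to 5.53, lay on every array under the median of the unlisted probe sets, as did 10 of the 49 genes. Each call of this paragraph was lost without array 2 of sham RV, and also without array 2 of the PAC group it concerns. In the fits to only the arrays compared, none of the 49 genes passed at 1 week, 2 fell at 3 weeks and 1 fell at 6 weeks. Of all genes, 89, 1090 and 1020 passed in those fits. Without the 3 arrays of high atrial markers, no gene of the list passed at 1 or 3 weeks, where 176 and 4 of all genes did, and at 6 weeks 4 fell and none rose. Kcna4 was then 0.97 above sham RV at 1 week (limma adjusted p = 0.0755).

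**Figure D4:**
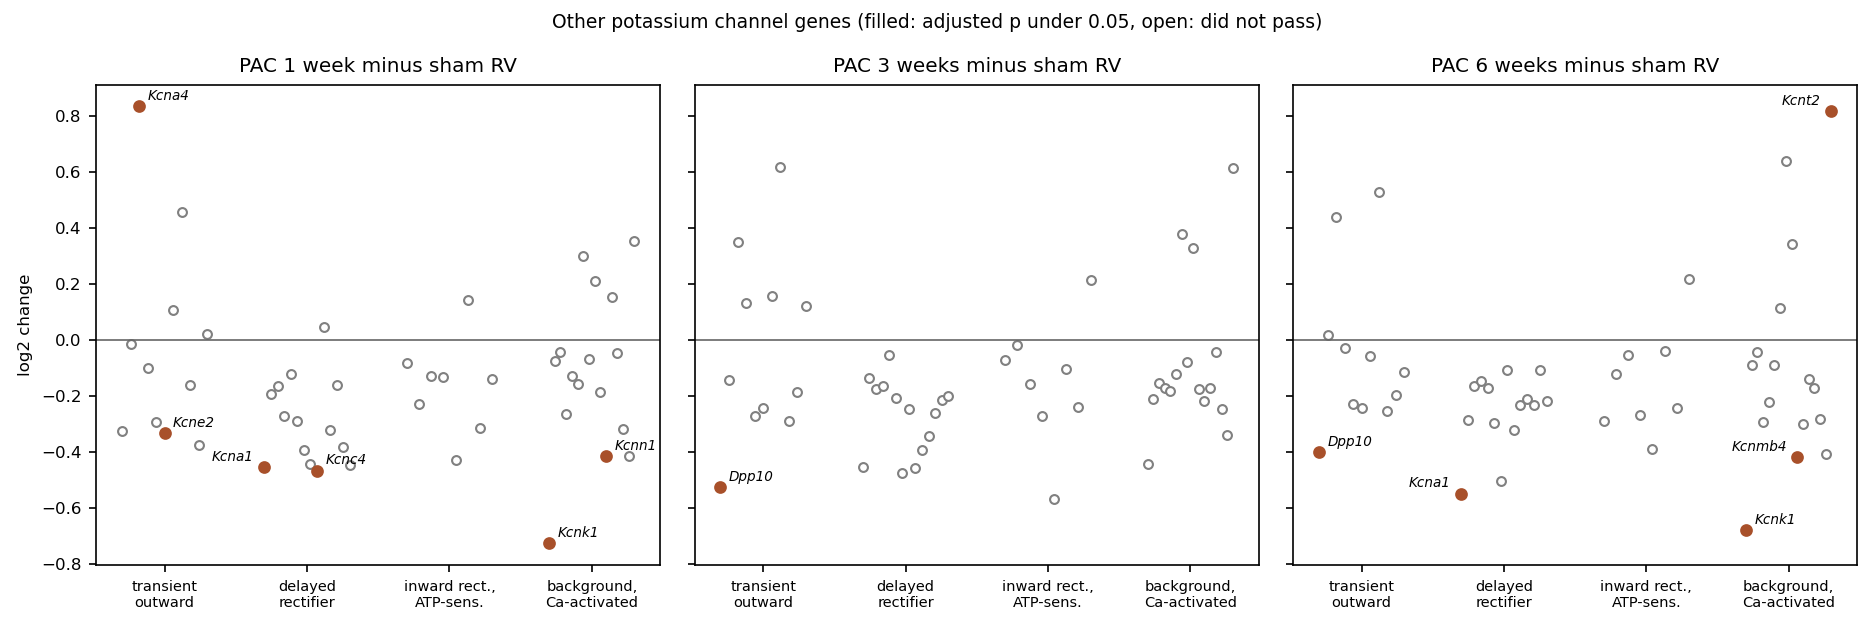
Log2 change of the 49 other potassium channel genes after PAC at 1, 3 and 6 weeks against sham RV, by channel class; filled points passed at a limma adjusted p under 0.05 and are named. Kcna4 at 1 week and Kcnt2 at 6 weeks are the 2 filled points above zero. The delayed rectifier genes lie below zero in 13, 14 and 14 of 14. Of these, 2, 0 and 1 passed, against 18.4%, 5.76% and 9.25% of all genes. The 3 comparisons share the 2 sham RV arrays, and in sham RV against sham LV 12 of the 14 were above zero.

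Genes that act on these channels were listed too. Of 16 regulators, Rcan1, a target and brake of calcineurin, rose at 1 week by 0.94 ± 0.29 (limma adjusted p = 0.0464) and at 6 weeks by 1.19 ± 0.29 (adjusted p = 0.0332). It read 9.43 and 9.53 in sham RV, 9.84 and 11.00 at 1 week, 10.55 and 10.58 at 3 weeks, and 10.46 and 10.88 at 6 weeks. All 6 PAC arrays lay above sham RV, and without array 2 of PAC at 1 week the 1-week difference was 0.36. At 6 weeks Tbx5, a cardiac transcription factor that acts in the conduction system, fell, with a change of -0.53 ± 0.11 (limma adjusted p = 0.0245). So did Etv1, a factor of fast-conducting muscle, with -0.42 ± 0.10 (limma adjusted p = 0.031). Klf15, a Kruppel-like factor known to set the daily rhythm of Kcnip2, also fell, with -0.51 ± 0.14 (limma adjusted p = 0.0446). After TAC, where no gene passed, these genes shifted the same way. Tbx5 read 8.35 and 8.57 in sham LV and 8.02 and 8.07 after TAC, and Etv1 7.95 and 7.87 against 7.65 and 7.78. Klf15 read 8.53 and 8.41 against 8.24 and 8.09, and Rcan1 9.72 and 9.98 against 10.50 and 10.72. Of 10 measured scaffold and trafficking genes, Flna (filamin A) and Cttn (cortactin) rose at 1 week, by 0.74 ± 0.18 and 0.43 ± 0.12 (limma adjusted p = 0.0228 and 0.0398). Without array 2 of PAC at 1 week the differences were 0.41 and 0.26. Fibroblasts also express both genes, and what part cell content had in these rises was not tested. Every call of these regulators and scaffolds was lost without either sham RV array, and without array 2 of the PAC group it concerns. Of 7 measured conduction system markers, 1 fell at 3 weeks and 3 at 6 weeks, against 2.54% and 3.73% of all genes, and none rose. Their mean was 6.43 and 6.29 in sham RV, 6.10 and 5.97 at 6 weeks, and 6.15 and 6.22 in sham LV. Tbx3 went the other way, at 7.27 and 7.38 in sham RV and 7.60 and 7.66 at 6 weeks. Whether the content of conduction tissue differed was not tested.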

How the data were processed

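RNA from 12 ventricle samples was hybridised to Affymetrix whole-transcript arrays. The authors deposited log2 expression values, made with RMA in Affymetrix Power Tools per the submitters' processing notes; their version is not given in the sources used here, nor is a genome build. The values ran from 1.71 to 14.78 and were used without further scaling. Array number, not read depth, limits the precision. Of 35556 probe sets, 21789 were annotated to a single gene, 1621 to several and 12146 were unlisted; for 999 genes with several probe sets the one of highest mean was kept, which left 19938 genes. limma 3.58.1 in R 4.3.3 fitted 1 mean per group to all 12 arrays (6 residual and 4.6 prior degrees of freedom), and 8 comparisons were drawn from that fit. P-values were adjusted over all genes by the Benjamini-Hochberg method and called at 0.05. The scripts were tested on simulated data.

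The members and gene lists were chosen with earlier results of these data known. The named genes were the 10 members, genes of the other lists that passed (at most 4 per list and comparison, by adjusted p; Irx5 was added after its values were seen), and the 3 genes nearest in profile to each member that passed. Some listed genes are not reported here. Markers of endothelium, smooth muscle and neurons were also read: of 6, 6 and 5 measured genes, 2, 2 and 0 rose at 1 week, 4, 3 and 0 at 3 weeks, and 0, 2 and 0 at 6 weeks, and none fell. Promoter sequences are RefSeq's, on GRCm38.p6. The alternatives were cyclic loess scaling, the mean over probe sets, only the genes above the median level (6.74), a trended and robust prior, a separate fit for each comparison on its own arrays, a replicate block, each array left out in turn, and, chosen after seeing the data, leaving out the 3 arrays with high atrial markers. That makes 19 alternative fits. The 3 arrays were not those with the highest atrial means, since array 1 of PAC at 1 week was kept.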

Additional observations from a re-analysis of the deposited data

How the results depend on the processing

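None of the 4 calls of members took the opposite sign in an alternative fit. Kcnj2 at 1 week, which was not called, stood at -0.62 without array 1 of that group and 0.06 without array 2. The number of members called at 1 week after PAC, 1 in the results above, was 0 without genes below the median level, where Kcnv2 itself is not tested, 0 with only the arrays compared, 0 without the 3 arrays of high atrial markers, and 2 with the replicate block. At 3 weeks, 1 became 3 without genes below the median level, 2 with the trended prior and with the replicate block, 2 with only the arrays compared, which were Kcnd2 and Kcnv2 and not Kcnj5, and 0 without the 3 arrays. At 6 weeks, 2 became 3 under loess scaling and the trended prior, 4 without genes below the median level, with only the arrays compared and with the replicate block, and 6 without the 3 arrays. Between 6 weeks and 1 week the trended prior called 1 (Kcnq1), and between the sham chambers 1 (Kcnd2) was called without genes below the median level and with the replicate block. Leaving out 1 array at a time gave 0 to 4, 0 to 3 and 0 to 6 members at 1, 3 and 6 weeks, 0 to 2 between 6 weeks and 1 week and 0 to 1 between the sham chambers. The remaining comparisons gave 0 members in every fit. The cause was not tested, except that fewer genes tested or fewer arrays are part of those alternatives.

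Counts over all genes moved more. At 1 week 3675 genes became 2143 under loess scaling, 89 with only the arrays compared, 176 without the 3 arrays, and 227 to 4557 with 1 array left out. At 3 weeks 1148 became 557 under loess scaling, 4 without the 3 arrays and 3 to 2070 with 1 array left out, and at 6 weeks 1844 became 1020 with only the arrays compared and 3 to 2656. Between the sham chambers 82 became 871 without genes below the median level, 723 with the trended prior, 52 under loess scaling, 6 with only the arrays compared, 2 without the 3 arrays and 0 to 252 with 1 array left out. Between 6 weeks and 1 week 19 became 32 without genes below the median level, 83 with the trended prior, 11 with the replicate block, 5 without the 3 arrays, 1 with only the arrays compared and 1 to 488 with 1 array left out. PAC against TAC gave 0 to 12 genes and PAC less TAC 0 to 3 over all fits. Of the calls at 1 week 51.9% were higher, against 65.4% under loess scaling, and between the sham chambers 18.3%, against 28.8%. Replicate numbers did not pair the samples throughout: over 15 pairs of groups the deviations of same-numbered arrays correlated between -0.24 and 0.37, above 0.1 in 5, which include the 3 pairs of PAC groups (0.26 to 0.37) and none of PAC with sham RV. The replicate block moved no member count by more than 2. Members' differences near zero changed sign under loess scaling in Kcnh2 at 1 week, Kcnq1 between the sham chambers and Kcnj2 in PAC less TAC, none of them called.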
